A study of Arabidopsis thaliana with 9 samples.

Results

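The comparison set seedlings of the hy5 mutant against the wild type (WT) of Arabidopsis thaliana, and covered every gene of the genome that could be tested. It rested on 6 of the 9 RNA sequencing libraries of the study, 3 of hy5 and 3 of WT, chosen by genotype alone. Of 24640 genes listed in any library, 20751 had enough reads to be tested. Whole seedlings were harvested at an age of 4 days. After cold treatment in darkness, a 2 h pulse of white light and 22 h of darkness, all plants had spent 3 days in red light of 80 µmol per square metre and second at 22 °C, on medium without sucrose. WT was the Col-0 ecotype. For hy5 the labels give neither an ecotype nor the allele, so that differences in the sequence background of the line cannot be told apart from loss of HY5. The other 3 libraries came from bbx202122, which combines mutations of BBX20, BBX21 and BBX22. They entered the estimate of the spread, and their levels stand beside some genes below.

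HY5 is a transcription factor of the basic leucine zipper (bZIP) class. Light stabilises it, because the COP1 ubiquitin ligase marks it for degradation in darkness, and it then binds DNA with an ACGT core to promote the seedling's switch to growth in light: a short hypocotyl, green cotyledons and pigment synthesis. In Arabidopsis it is also known for roles in root growth, nutrient uptake and the synthesis of flavonoids. B-box proteins such as BBX20, BBX21 and BBX22 bind HY5 and act with it.

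Levels are given as counts per 1e6 RSEM expected counts of a library (CPM), scaled with TMM, which corrects for differences in library composition. A gene was said to have risen or fallen in hy5 when edgeR's quasi-likelihood F test, two-sided and with Benjamini-Hochberg adjustment over all tested genes, gave an adjusted p under 0.05. Log2 fold changes are hy5 over WT, fitted, with their standard error, from 3 libraries against 3. CPM do not correct for gene length, so levels are compared between genotypes and not between genes. Library totals, in units of 1e6 expected counts, were 21.6 to 22.4 for WT and 21.7 to 21.9 for hy5. There 3 counts amounted to 0.134 to 0.139 CPM before TMM scaling, and after it to 0.143 CPM in hy5 replicate 1. Since whole seedlings were measured, fewer cells of a type and less RNA per cell cannot be told apart. Nothing in the labels says that replicates came from separate cultures, and the p-values therefore reflect sample-to-sample spread that may be technical.

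HY5 itself (AT5G11260, chromosome 5, 3593335 to 3595073 on the minus strand of TAIR10.1) stood at 15.5, 16.4 and 18.4 CPM in WT and at 9.07, 9.1 and 6.5 CPM in hy5. The libraries of the genotypes did not overlap, which held for 51.6% of all tested genes (10709), and the log2 fold change was -1.03 ± 0.12 (adjusted p 6.3e-06). Reads of HY5 thus remained in the mutant, and without the allele they say nothing about which part of the gene was altered. HY5 was also below WT in bbx202122, at 6.34 ± 0.47 CPM (SD, n = 3), so that the lower level was not particular to hy5. HYH, the closest relative of HY5 and also a bZIP factor, stood at 23.3, 27.2 and 25.8 CPM in WT and at 10.5, 10.7 and 9.8 CPM in hy5, a log2 fold change of -1.30 ± 0.08 (adjusted p 1.9e-08). HYH stood at 11.1 ± 0.76 CPM in bbx202122 (SD, n = 3), next to its hy5 level.

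Across the genome 8187 genes (39.5% of those tested) differed between hy5 and WT. Of these, 4070 rose (19.6% of tested genes) and 4117 fell (19.8%). With scaling by library size alone, 3118 rose and 5054 fell, so that the share of calls that were increases moved from 49.7% to 38.2%; the median log2 fold change over all tested genes was then -0.051 instead of 0.003. Most differences were small. The middle of the distribution, from the 25th to the 75th percentile of the log2 fold change, ran from -0.21 to 0.18, and the 1st and 99th percentiles were -2.06 and 1.41. Changes of at least 2-fold were found in 1391 genes (6.7%), with 997 lower (4.8%) and 394 higher (1.9%). At 4-fold or more, 222 genes were lower (1.07%) and 113 higher (0.545%).

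**Figure D1:**
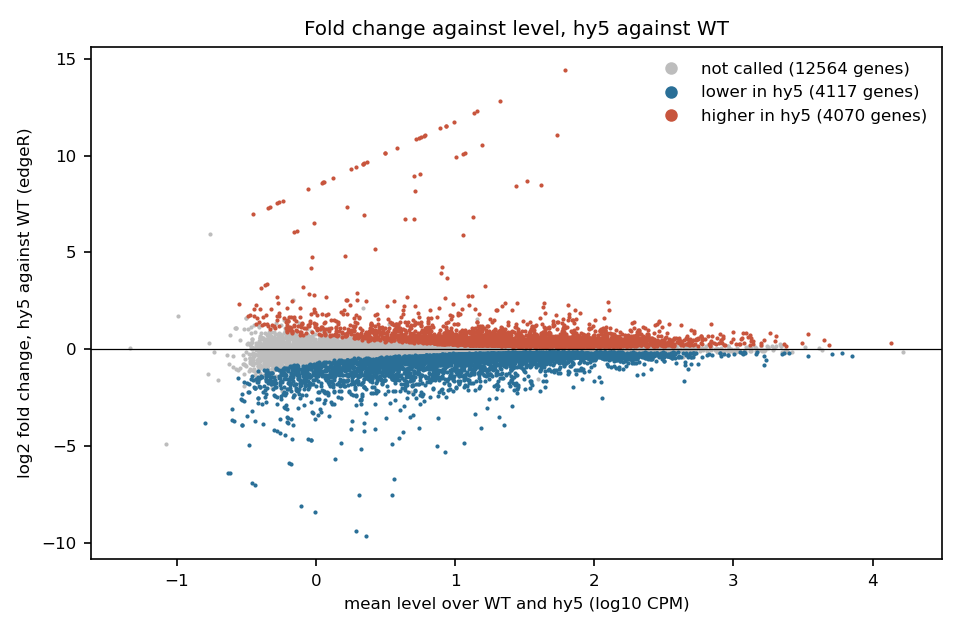
Each point is 1 of the 20751 tested genes, with its mean level over the WT and hy5 libraries on a log10 axis in CPM and its fitted log2 fold change, hy5 over WT, on the vertical axis. The 4070 higher and 4117 lower genes are coloured and the 12564 others are grey; the streak of points at the upper left is made of genes with 0 or nearly 0 counts in WT, whose fitted fold change depends on the prior count.

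The larger changes were uneven over expression level. When the tested genes were ranked by mean level and cut into 5 groups of equal size, the share called was lowest in the lowest group, 33.2%, and highest in the top group, 53.1%. Changes of at least 2-fold ran the other way. In the lowest group, from 0.0458 to 3.76 CPM, 621 genes were at least 2-fold lower and 182 at least 2-fold higher in hy5. In the top group, above 52.3 CPM, the balance was 27 lower and 55 higher. A gene with few counts must change more to be called, and the part of depth in this pattern was not tested.

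**Figure D2:**
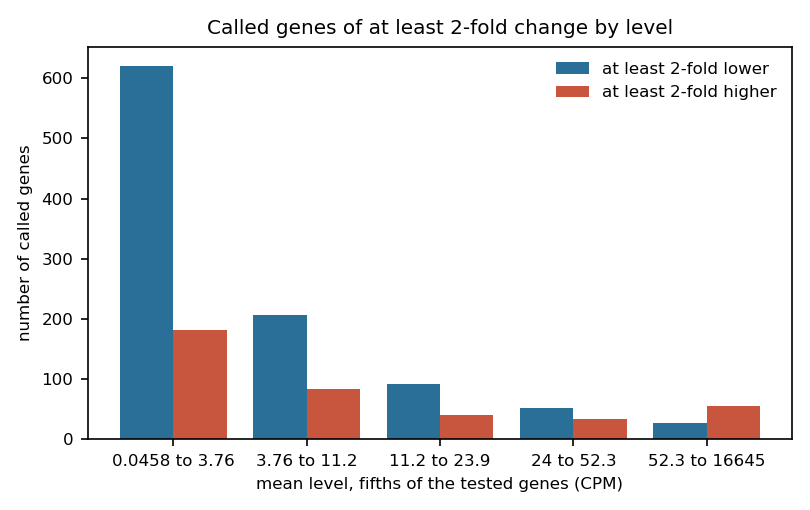
Bars count the called genes of at least 2-fold change, higher or lower in hy5, in each of 5 equal groups of the tested genes ranked by mean CPM. Decreases outnumbered increases 621 to 182 in the lowest group, and increases outnumbered decreases 55 to 27 in the highest.

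HY5 is known to bind the G-box, CACGTG, and other words around ACGT. The 250 bases before the annotated start of each gene were therefore searched on both strands, for 24435 genes with a window; ACGT lies inside each longer word searched. CACGTG was found in 7.0% of all windows, in 6.5% of those of genes at least 2-fold lower in hy5 and in 8.1% of those of genes at least 2-fold higher. For AACGTG the shares were 7.7% of all windows, 13.8% of genes at least 2-fold lower and 10.2% of genes at least 2-fold higher. For genes that fell by less than 2-fold the AACGTG share was 8.2%, and for genes not called it was 7.1%. ACGT alone was found in 44.4% of all windows, in 49.3% of genes at least 2-fold lower and in 48.5% of genes at least 2-fold higher. The other words searched differed less or went the other way. In all windows and in genes at least 2-fold lower, the shares were 6.2% and 7.6% for GACGTG, 2.3% and 1.6% for GACGTC, and 0.8% and 0.9% for ATACGTGT. These shares are a description: a match is a run of letters, not a site shown to be bound.

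To show what such windows look like, the sequences before 6 genes described below are printed, 4 that fell and 2 that rose, picked with their values known because each holds 1 CACGTG, in capitals. They are read 5′ to 3′ on the strand of the gene from RefSeq's TAIR10.1 and end at the base before the annotated start. The windows are chr2:19476076-19476325 (plus strand) for MYB12, chr4:7992430-7992679 (minus) for CYP83A1, chr3:21085246-21085495 (minus) for BHLH38, chr1:37872-38121 (minus) for LHY, chr5:17166033-17166282 (minus) for DFR and chr2:17712331-17712580 (minus) for COR15A.
MYB12: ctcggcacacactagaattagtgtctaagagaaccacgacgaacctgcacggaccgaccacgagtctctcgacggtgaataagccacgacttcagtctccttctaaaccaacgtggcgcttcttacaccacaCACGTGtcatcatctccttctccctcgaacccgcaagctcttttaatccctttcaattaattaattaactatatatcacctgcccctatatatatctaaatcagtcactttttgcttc
CYP83A1: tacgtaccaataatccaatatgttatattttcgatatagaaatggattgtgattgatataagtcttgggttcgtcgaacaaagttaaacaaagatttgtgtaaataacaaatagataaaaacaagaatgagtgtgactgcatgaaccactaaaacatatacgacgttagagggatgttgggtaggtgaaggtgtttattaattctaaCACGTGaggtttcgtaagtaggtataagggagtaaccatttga
BHLH38: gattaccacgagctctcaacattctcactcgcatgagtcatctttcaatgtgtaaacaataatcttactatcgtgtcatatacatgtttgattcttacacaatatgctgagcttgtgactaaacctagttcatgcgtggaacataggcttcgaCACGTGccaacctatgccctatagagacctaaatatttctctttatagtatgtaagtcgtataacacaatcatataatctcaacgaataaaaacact
LHY: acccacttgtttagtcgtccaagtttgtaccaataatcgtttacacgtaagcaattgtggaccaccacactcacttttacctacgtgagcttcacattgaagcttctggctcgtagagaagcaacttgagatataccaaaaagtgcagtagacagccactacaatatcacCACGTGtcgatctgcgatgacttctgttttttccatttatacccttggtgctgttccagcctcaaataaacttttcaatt
DFR: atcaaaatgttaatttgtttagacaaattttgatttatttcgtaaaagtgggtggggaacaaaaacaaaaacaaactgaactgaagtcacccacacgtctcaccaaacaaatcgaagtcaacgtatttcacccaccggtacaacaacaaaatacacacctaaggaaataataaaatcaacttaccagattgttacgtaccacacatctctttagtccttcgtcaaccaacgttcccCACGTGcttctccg
COR15A: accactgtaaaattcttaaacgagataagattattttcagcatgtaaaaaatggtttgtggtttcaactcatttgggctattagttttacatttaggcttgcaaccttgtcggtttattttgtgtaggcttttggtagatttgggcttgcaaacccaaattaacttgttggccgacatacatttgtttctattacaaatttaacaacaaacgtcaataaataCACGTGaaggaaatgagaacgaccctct
Counted from the start, the first base of the word lay at -118 before MYB12, -43 before CYP83A1, -97 before BHLH38, -80 before LHY, -14 before DFR and -28 before COR15A.

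The lowest median of any pathway list was that of aliphatic glucosinolates, the sulfur-rich defence compounds that Arabidopsis builds from methionine. Of 10 tested genes of the chain elongation steps, which lengthen the methionine side chain, 9 fell and none rose, with a median log2 fold change of -4.08. BCAT4, the aminotransferase of the first step, fell to the edge of detection, with 268 counts over the 3 WT libraries and 1 over the 3 of hy5, a ratio of 0.00377 (95% exact interval 9.51e-05 to 0.0212, counting error only). IPMI2, a subunit of the isomerase of the cycle, stood at 11.1, 18.3 and 13.9 CPM in WT and at 0.334, 0.563 and 0.424 CPM in hy5 (log2 fold change -5.01 ± 0.29, adjusted p 6.2e-09). The lowest WT library thus lay far above the highest hy5 library. IIL1, a large isomerase subunit, was the member not called, at 142 CPM in WT and 145 CPM in hy5. IMD3 and BCAT3, which are also known to serve leucine or other amino acid synthesis, fell by 0.19 each on the log2 scale.

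In the next steps of the pathway, which build the core and modify the side chain, 12 of 15 tested genes fell and 1 rose (median -0.86). CYP79F1, which converts the elongated methionine to an aldoxime, had 464 counts in WT and 2 in hy5, a ratio of 0.00435 (95% exact interval 0.000526 to 0.0158). CYP83A1, the cytochrome P450 that acts on these aldoximes, stood at 16.8, 29.0 and 21.0 CPM in WT and at 0.955, 0.938 and 0.377 CPM in hy5 (log2 fold change -4.87 ± 0.27, adjusted p 5e-09). WT replicate 2 was the highest WT library for IPMI2 and CYP83A1 alike, and the genotypes did not overlap, as held for 51.6% of all tested genes. Later steps shared with indole glucosinolates moved less: SUR1, the carbon-sulfur lyase, fell from 59.6 to 39.1 CPM and UGT74B1, a glucosyltransferase, from 48.3 to 37.1 CPM. The side-chain oxygenases split by member. FMOGS-OX1 (1.7 to 0.173 CPM) and FMOGS-OX3 (3.68 to 0.504 CPM) fell, FMOGS-OX2 rose (13.4 to 18.1 CPM) and FMOGS-OX5 stood at 34.0 and 33.9 CPM.

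Genes that regulate and feed the pathway followed in part. MYB29, an activator of aliphatic glucosinolate genes, stood at 2.94, 4.17 and 3.01 CPM in WT and at 0.0955, 0.469 and 0.189 CPM in hy5 (log2 fold change -3.71 ± 0.33, adjusted p 4.8e-07). MYB28, its main partner in that role, stood at 63.5, 70.7 and 58.2 CPM in WT and at 40.7, 38.7 and 38.2 CPM in hy5 (-0.71 ± 0.07, adjusted p 1.6e-06). Both fell without overlap, which held for 51.6% of all tested genes. MYB29 went from a low level to near the detection limit and MYB28 from a higher level by a smaller factor. APK2, a kinase that makes the activated sulfate used to sulfate the core, stood at 34.0, 42.1 and 37.5 CPM in WT and at 12.3, 11.3 and 13.1 CPM in hy5 (-1.63 ± 0.1, adjusted p 1.6e-08), and APK1, with the same activity, fell from 38.0 to 24.3 CPM. Sulfur genes as a whole did not go one way: of 17 tested genes of sulfate uptake, reduction and sulfur deficiency, 5 rose and 5 fell (median 0.05, or -0.01 with scaling by library size alone). SULTR1;1, a high-affinity sulfate transporter, had the list's lowest log2 fold change, at 3.61, 3.99 and 3.19 CPM in WT and 0.239, 0.751 and 0.754 CPM in hy5 (-2.61 ± 0.28, adjusted p 3.8e-06), and SULTR2;1, another sulfate transporter, fell from 44.0 to 30.7 CPM.

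For indole glucosinolates, made from tryptophan, 6 of 7 tested genes of the list fell (median -0.48). CYP81F4, which modifies the indole ring, stood at 295, 275 and 300 CPM in WT and at 120, 107 and 124 CPM in hy5 (-1.31 ± 0.09, adjusted p 5.6e-08). MYB34, an activator of the indole branch, fell from 56.8 to 33.7 CPM. Of 11 tested genes of glucosinolate breakdown and the ER bodies that store its enzymes, none fell and 4 rose. The called share, 36.4%, lay below the 39.5% of all tested genes. Of these, ESP, which steers breakdown towards nitriles, rose from 11.9 to 22.9 CPM. That count of 4 became 2 without hy5 replicate 2, with scaling by library size alone and with limma on the FPKM values.

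**Figure D3:**
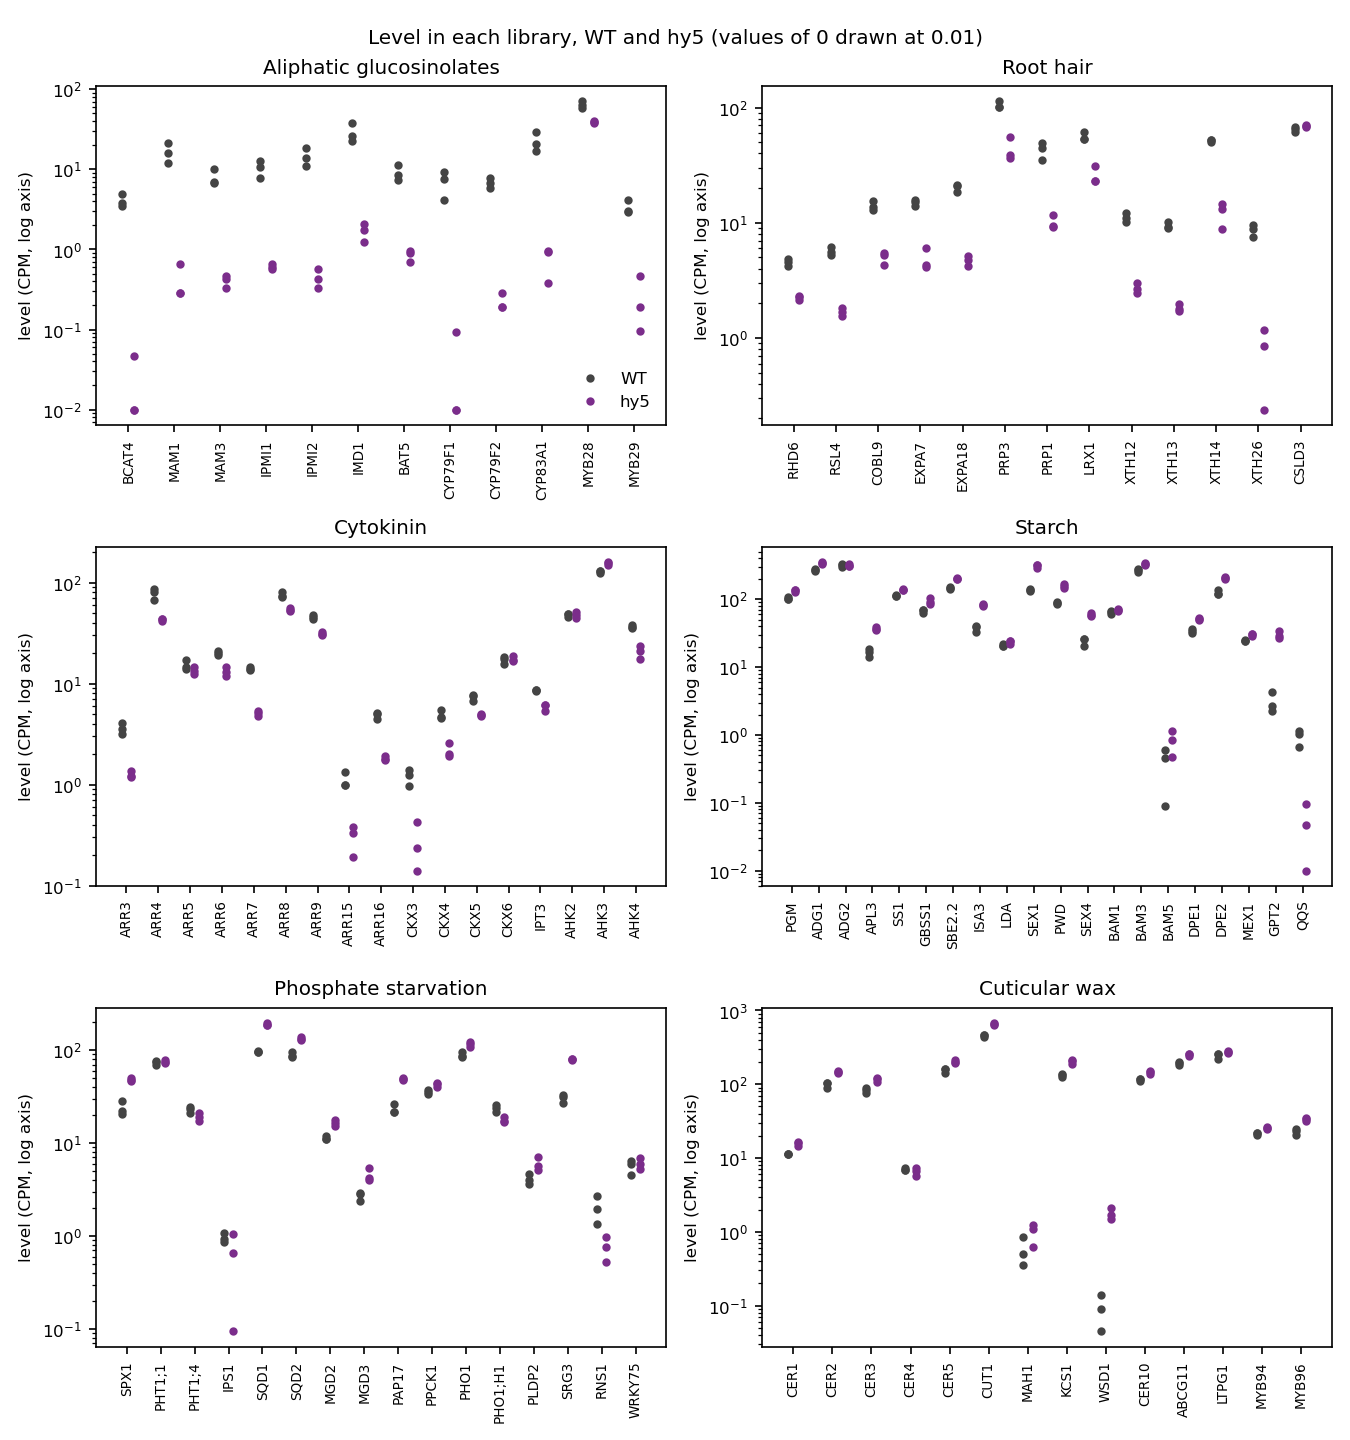
Each panel shows the level in CPM, on a log10 axis with 0 drawn at 0.01, of chosen genes of 1 pathway in the 3 WT and the 3 hy5 libraries, 1 point per library. The aliphatic glucosinolate, root hair and cytokinin genes lie lower in hy5, apart from CSLD3, ARR5, CKX6, AHK2 and AHK3, and the starch, phosphate and wax genes drawn lie mostly higher.

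Phenylpropanoids, the phenylalanine-derived compounds from which lignin and flavonoids are made, were lower in their general steps. Of 8 tested genes, 6 fell and none rose (median -0.39). PAL1, which opens the pathway by removing ammonia from phenylalanine, stood at 228, 243 and 226 CPM in WT and at 128, 151 and 151 CPM in hy5 (-0.70 ± 0.09, adjusted p 3.7e-05). Of 16 tested genes towards lignin monomers and sinapate esters, 9 fell and 2 rose (median -0.33). CAD4, a cinnamyl alcohol dehydrogenase at the last step to lignin monomers, stood at 188, 199 and 185 CPM in WT and at 93.0, 97.6 and 100 CPM in hy5 (-0.98 ± 0.05, adjusted p 4.6e-09). In bbx202122 it stood at 120 CPM. CAD5, the other main dehydrogenase of this step, rose from 49.4 to 58.5 CPM.

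Flavonoid genes differed by branch. Of 13 tested genes of the early steps and of flavonols 3 fell and 2 rose (38.5% called, against 39.5% of all tested genes). MYB12, an activator of flavonol synthesis, stood at 3.56, 3.62 and 2.96 CPM in WT and at 0.239, 0.235 and 0.0943 CPM in hy5 (-4.12 ± 0.28, adjusted p 3.5e-08), while its relatives MYB11 and MYB111 were not called (adjusted p 0.30 and 0.44). Of 15 tested genes of anthocyanin synthesis and its regulators, 11 rose and 3 fell (median 1.34). Members of the late steps rose: UGT79B1, which adds a sugar to anthocyanins, stood at 2.09, 2.29 and 2.42 CPM in WT and at 11.6, 6.57 and 7.16 CPM in hy5 (1.89 ± 0.21, adjusted p 4.5e-06). In bbx202122 UGT79B1 stood at 1.71 CPM, 2.3 lower on the log2 scale than in hy5 (adjusted p 2.9e-06). DFR, a further gene of the late steps, stood at 6.42, 10.5 and 6.82 CPM in WT and at 40.4, 25.5 and 29.5 CPM in hy5 (2.0 ± 0.18, adjusted p 6.6e-07). Among the regulators, MYBL2, a repressor of anthocyanin genes, rose from 12.7 to 26.0 CPM. The 3 that fell were GL3 (3.29 to 0.963 CPM), EGL3 (8.39 to 4.76 CPM) and CPC (2.91 to 1.56 CPM), which also act in the patterning of root hairs and leaf hairs.

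Root hair genes were lower in hy5. Of 13 tested root hair markers 12 fell, with a median log2 fold change of -1.75, and their summed level went from 397 to 417 CPM in WT down to 166 to 210 CPM in hy5. RSL4, the bHLH factor that sets how long a hair grows, stood at 6.19, 5.23 and 5.61 CPM in WT and at 1.67, 1.83 and 1.56 CPM in hy5 (-1.75 ± 0.15, adjusted p 3.4e-07). XTH26, a wall-remodelling enzyme of hairs, stood at 9.62, 8.85 and 7.49 CPM in WT and at 0.239, 0.845 and 1.18 CPM in hy5 (-3.51 ± 0.26, adjusted p 6.6e-08). PRP1, a proline-rich protein of the hair wall, stood at 49.0, 35.1 and 44.6 CPM in WT and at 9.21, 9.38 and 11.7 CPM in hy5 (-2.09 ± 0.12, adjusted p 8.3e-09). The genotypes did not overlap for any of these genes, as held for 51.6% of all tested genes. The member not called was CSLD3, needed for hair tip growth and also used in other cells, at 64.9 ± 3.2 and 69.1 ± 1.8 CPM.

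Other root markers did not follow the root hair genes. Of 13 tested markers of the endodermis and of suberin, the waxy polymer of that layer, 8 rose and 3 fell, and their summed level was 411 to 455 CPM in WT and 492 to 506 CPM in hy5. The members that rose make or control the Casparian strip: CASP5 stood at 20.7, 18.5 and 22.8 CPM in WT and at 40.6, 39.9 and 38.0 CPM in hy5 (0.93 ± 0.08, adjusted p 4.9e-07), and ESB1 rose from 71.8 to 103 CPM. The 3 that fell make suberin monomers: CYP86A1 (30.7 to 9.61 CPM), GPAT5 (8.66 to 4.85 CPM) and ASFT (42.1 to 26.6 CPM). Of 14 tested phloem and xylem markers 9 rose and none fell, with summed levels of 384 to 463 CPM in WT and 507 to 536 CPM in hy5; the count was 6 with scaling by library size alone, 5 without WT replicate 1, and 4 when either WT replicate 2 or hy5 replicate 2 was left out. Of 12 tested genes of the stomatal lineage 6 fell, among them TMM, a receptor of the lineage (11.4 to 7.58 CPM), and the count was 3 without hy5 replicate 2. No marker of these 4 lists was at 0 in all 3 libraries of either genotype. Among seed storage and oil body genes, which mark RNA left from the seed, 2 of 8 tested rose, CRA1 and SESA1; the summed level was 48.5 to 96.1 CPM in WT and 79.7 to 116 CPM in hy5, which overlap, and the count was 0 without hy5 replicate 1. Of 7 tested genes of the shoot meristem and organ primordia (28.6% called) 1 rose (AS1) and 1 fell (ANT), neither without hy5 replicate 1.

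Iron deficiency genes also fell. Of 16 tested genes 12 fell and none rose (median -0.79). The bHLH factors that switch on iron uptake when iron is scarce fell most. BHLH38 stood at 13.4, 15.9 and 11.7 CPM in WT and at 3.2, 2.16 and 3.06 CPM in hy5 (-2.28 ± 0.17, adjusted p 7.4e-08), and BHLH100, of the same group, at 20.6, 24.6 and 22.5 CPM and at 7.54, 4.6 and 3.49 CPM (-2.12 ± 0.17, adjusted p 1.7e-07). FIT, their partner, was not called, at 9.59 and 8.27 CPM (adjusted p 0.082). F6'H1, which starts the synthesis of the iron-mobilising coumarins, stood at 27.6, 28.2 and 26.9 CPM in WT and at 11.9, 12.4 and 11 CPM in hy5 (-1.23 ± 0.1, adjusted p 2.6e-07). FER1, the iron store ferritin, which is known to fall when iron is scarce, also fell, from 215 to 150 CPM. Many of these uptake genes are used in root epidermis, whose hair markers moved with them, and the part of that in the iron result was not tested.

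Genes of the phosphate starvation response went up. Of 16 tested genes 10 rose and 3 fell (median 0.46). SRG3, a phosphodiesterase that frees phosphate from lipid head groups, stood at 27.0, 33.0 and 31.6 CPM in WT and at 78.6, 81.3 and 79.8 CPM in hy5 (1.39 ± 0.07, adjusted p 1.3e-09). SQD1, which makes the sulfolipid that replaces phospholipids in plastids, stood at 96.3, 95.7 and 97.9 CPM in WT and at 188, 188 and 195 CPM in hy5 (0.98 ± 0.06, adjusted p 6.2e-09). Both showed replicates close together and no overlap, the second as did 51.6% of all tested genes. In bbx202122 SRG3 stood at 39.0 CPM and SQD1 at 106 CPM, nearer to WT. PAP17, an acid phosphatase, rose from 23.4 to 49.0 CPM and SPX1, a phosphate sensor, from 23.8 to 47.8 CPM. Members that fell were PHT1;4, a phosphate transporter (23.0 to 19.1 CPM), PHO1;H1, a transporter of the same pathway (23.6 to 17.8 CPM), and RNS1, a ribonuclease (2.0 to 0.755 CPM). IPS1, a non-coding RNA widely used as a marker of phosphate shortage, was not called, at 0.946 and 0.601 CPM (adjusted p 0.28).

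Nitrogen genes did not share a direction. Of 18 tested genes of nitrate uptake and assimilation 4 rose and 6 fell (median -0.0). NRT2.1, a high-affinity nitrate transporter, had the list's lowest log2 fold change, at 0.936, 1.70 and 1.35 CPM in WT and 0.286, 0.0938 and 0.0943 CPM in hy5 (-3.03 ± 0.43, adjusted p 5.2e-05), a low level in both genotypes. The decrease with the list's smallest adjusted p was that of RFNR2, which supplies electrons to nitrite reductase in root plastids, at 104, 111 and 112 CPM in WT and 53.6, 50 and 52.7 CPM in hy5 (-1.06 ± 0.05, adjusted p 2.1e-09). ASN1, an asparagine synthetase known as a gene of sugar shortage, stood at 85.6, 53.4 and 96.7 CPM in WT and at 155, 153 and 140 CPM in hy5 (0.92 ± 0.15, adjusted p 0.00014). WT replicate 2 was the low library of a scattered WT group, and even the group's highest library lay below hy5. Such a gap between genotypes was found for 51.6% of all tested genes.

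Starch genes were mostly higher in hy5. Of 20 tested genes of starch synthesis and breakdown 15 rose and 1 fell (median 0.46). GPT2, which carries glucose phosphate into plastids, stood at 2.63, 4.36 and 2.29 CPM in WT and at 34.1, 26.6 and 28.4 CPM in hy5 (3.27 ± 0.21, adjusted p 2e-08). The enzymes that phosphorylate and dephosphorylate the starch granule during its breakdown rose as well. SEX1, the glucan water dikinase, stood at 144, 139 and 133 CPM in WT and at 288, 322 and 321 CPM in hy5 (1.16 ± 0.07, adjusted p 1.7e-08). SEX4, the phosphatase that removes these groups, stood at 26.3, 26.0 and 20.8 CPM and at 62.3, 57.3 and 59.3 CPM (1.29 ± 0.08, adjusted p 2.2e-08). PWD, the second dikinase, rose from 89.0 to 158 CPM, ISA3, a debranching enzyme, from 37.6 to 82.6 CPM, and DPE2, which uses the maltose exported at night, from 124 to 207 CPM. On the synthesis side APL3, a large subunit of ADP-glucose pyrophosphorylase, rose from 16.5 to 37.1 CPM, while ADG2, another large subunit, stood at 318 and 315 CPM.

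QQS, a gene known to lower starch content in Arabidopsis, was the member that fell, at 0.668, 1.15 and 1.03 CPM in WT and at 0.0477, 0 and 0.0943 CPM in hy5 (-4.17 ± 0.57, adjusted p 3.4e-05). In bbx202122 QQS stood at 7.82 CPM, above both. Several starch breakdown genes are under clock control in textbook accounts, and clock genes differed too. LHY, a MYB factor of the morning, stood at 145, 145 and 167 CPM in WT and at 47.7, 46.4 and 49.9 CPM in hy5 (-1.67 ± 0.06, adjusted p 8.2e-11). Of 16 tested clock genes 10 rose and 5 fell, and the part of the clock in the starch result was not tested.

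Of 16 tested genes of sucrose synthesis and sugar transport 10 rose and 1 fell (median 0.38). STP1, a hexose uptake carrier, stood at 75.7, 60.7 and 89.1 CPM in WT and at 147, 158 and 131 CPM in hy5 (0.95 ± 0.11, adjusted p 8.3e-06). SPS1F, a sucrose phosphate synthase, rose from 106 to 157 CPM, and the trehalose phosphate synthase relatives TPS8, TPS9, TPS10 and TPS11 rose by 0.56 to 0.68 on the log2 scale. CINV1, a cytosolic invertase that splits sucrose, was the one that fell, at 153, 150 and 154 CPM in WT and at 101, 106 and 102 CPM in hy5 (-0.56 ± 0.05, adjusted p 1.3e-06). It stood at 175 CPM in bbx202122.

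Genes of light perception and signalling differed by group. Of 13 tested photoreceptor genes and their cofactors 5 rose and none fell. The called share, 38.5%, was close to the 39.5% of all tested genes. PHYA, the phytochrome of far-red light, stood at 173, 152 and 167 CPM in WT and at 224, 250 and 255 CPM in hy5 (0.57 ± 0.07, adjusted p 1.8e-05). PHYB, the main red light receptor, was not called at 80.0 and 75.1 CPM (adjusted p 0.28). COP1, the ligase that targets HY5, was not called either, at 41.1 and 42.4 CPM, and SPA1, its partner, fell from 109 to 86.3 CPM. Of 9 tested PIF factors and their antagonists 2 rose (22.2% called), PIF3 and PIF4, the second from 71.3 to 99.5 CPM. With scaling by library size alone 2 members rose and 2 fell, and limma also called 4. Among 10 tested bZIP factors that bind G-boxes, HYH was the member that fell and 5 rose by small amounts, such as GBF2 (35.6 to 45.3 CPM). Of 11 tested genes of the UV-B response, in which HY5 is a known regulator, 5 fell and none rose: UVR2, a photolyase that repairs DNA, fell from 6.78 to 2.49 CPM and RUP2, a repressor of the UV-B receptor, from 10.9 to 5.33 CPM. ELIP2, a light-stress protein of the plastid, fell from 3.70 to 1.32 CPM and GPX7, a glutathione peroxidase, from 1.22 to 0.284 CPM, so that 4 of the 5 fell by at least 2-fold. The called share of the UV-B list, 45.5%, was not far from the 39.5% of all tested genes.

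Plastid genes were mixed in direction. Of 18 tested Calvin cycle genes 6 fell and 2 rose (median -0.07); RBCS3B, a small subunit of Rubisco, stood at 7729, 8692 and 7684 CPM in WT and at 6167, 6227 and 6278 CPM in hy5 (-0.37 ± 0.07, adjusted p 0.00077). The 8 called genes made up 44.4% of the list, against 39.5% of all tested genes. Their count was 5 without WT replicate 3, without hy5 replicate 1 or without hy5 replicate 2. CGA1, a GATA factor that promotes greening and that cytokinin induces, stood at 14.5, 13.7 and 13.3 CPM in WT and at 6.21, 6.71 and 6.83 CPM in hy5 (-1.07 ± 0.1, adjusted p 5.8e-07), while its relative GNC rose from 45.6 to 55.1 CPM. GLK1 and GLK2, which also drive chloroplast development, stood at 128 and 132 CPM (not called) and at 125 and 105 CPM (lower).

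**Figure D4:**
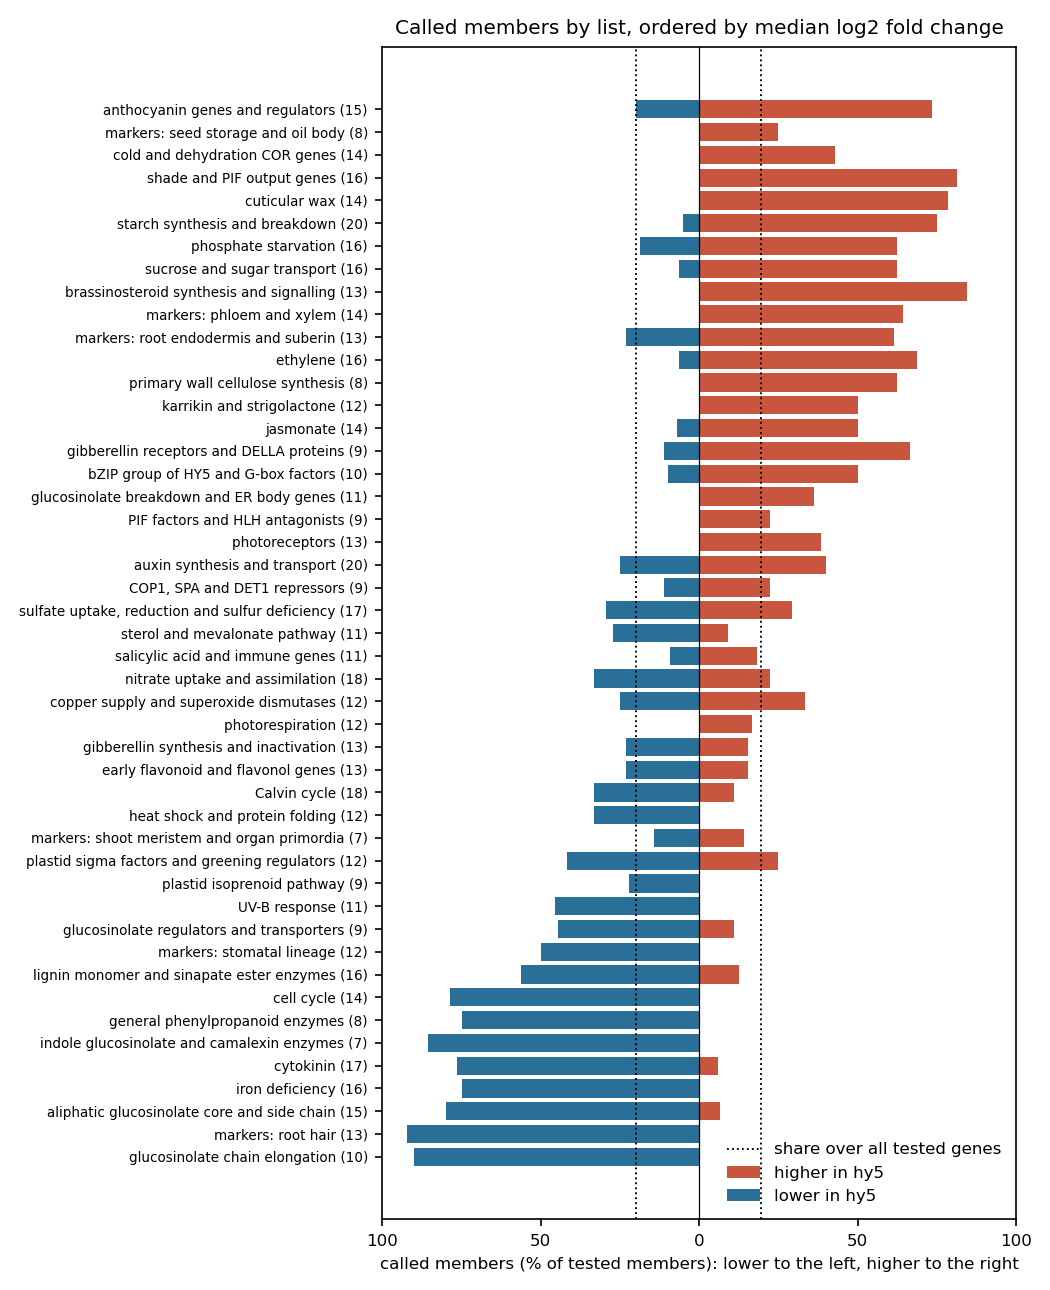
For each gene list, bars give the percentage of tested members that fell (to the left) or rose (to the right) in hy5, and dotted lines mark the share over all 20751 tested genes, 19.8% lower and 19.6% higher. The root hair and glucosinolate chain elongation lists reach furthest to the left; brassinosteroid, shade, wax and starch lists are among those that reach furthest to the right.

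Hormone genes moved by pathway. In cytokinin signalling 13 of 17 tested genes fell and 1 rose (median -0.61). The type-A response regulators, which cytokinin itself induces and which dampen its signal, made up 8 of the 13 decreases. ARR7 stood at 13.9, 14.7 and 13.7 CPM in WT and at 5.35, 5.16 and 4.81 CPM in hy5 (-1.47 ± 0.09, adjusted p 1.6e-08). ARR16 stood at 5.12, 4.45 and 4.98 CPM and at 1.81, 1.92 and 1.74 CPM (-1.41 ± 0.14, adjusted p 1.9e-06). In bbx202122 ARR7 stood at 9.94 CPM and ARR16 at 4.22 CPM. ARR5 was the tested type-A member that was not called, at 15.2 and 13.5 CPM (adjusted p 0.15). The oxidases CKX3, CKX4 and CKX5, which degrade cytokinin, and IPT3, which makes it, fell as well. Of the receptors, AHK4 fell from 36.6 to 20.7 CPM, AHK3 rose from 129 to 155 CPM and AHK2 stood at 47.5 and 47.9 CPM.

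In contrast to cytokinin genes, 11 of 13 tested genes of brassinosteroid synthesis and signalling rose and none fell (median 0.30). All these rises were small. BZR1, a factor that carries out the response, stood at 41.8, 35.5 and 40.9 CPM in WT and at 61.6, 60.6 and 57.4 CPM in hy5 (0.60 ± 0.07, adjusted p 5.3e-06). CPD, an enzyme of the synthesis, rose from 100 to 134 CPM and BRI1, the receptor, from 192 to 242 CPM. Ethylene genes were alike in direction, with 11 of 16 tested higher and 1 lower (median 0.27). The receptor genes ETR2 (10 to 18.4 CPM) and ERS2 (11.1 to 18.4 CPM) rose, and ACO1, an enzyme of ethylene synthesis, fell from 5.48 to 2.87 CPM.

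Of 16 tested shade and PIF output genes, which are known to be induced when phytochrome is inactive, 13 rose and none fell (median 0.56). The strongest was ST2A, a sulfotransferase that inactivates a jasmonate precursor, at 14, 12.2 and 15.8 CPM in WT and 74.9, 75 and 67.0 CPM in hy5 (2.37 ± 0.1, adjusted p 2.1e-10). In bbx202122 it stood at 44.4 CPM. XTR7, a wall enzyme of shade growth, stood at 24.1, 21.0 and 23.3 CPM in WT and at 48.2, 48.3 and 44.2 CPM in hy5 (1.04 ± 0.07, adjusted p 2.3e-08). Auxin synthesis and transport genes were divided, with 8 of 20 tested higher and 5 lower (6 and 6 with scaling by library size alone). YUC8, which makes auxin, rose from 7.35 to 12.6 CPM; the carriers LAX1 (74.8 to 123 CPM), PIN7 (186 to 274 CPM) and PIN4 (124 to 174 CPM) rose. PIN2, the carrier of the root epidermis and cortex, stood at 29.6, 28.5 and 28.0 CPM in WT and at 12.8, 14.9 and 13.8 CPM in hy5 (-1.05 ± 0.07, adjusted p 4.8e-08).

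Of 14 tested jasmonate genes 7 rose and 1 fell (median 0.20). AOC2, an allene oxide cyclase of jasmonate synthesis, stood at 77.8, 92.8 and 74.7 CPM in WT and at 191, 173 and 164 CPM in hy5 (1.11 ± 0.09, adjusted p 3.5e-07). VSP1, a storage protein that jasmonate induces, was the gene that fell, at 18.5, 20.4 and 17.8 CPM in WT and 6.06, 6.85 and 6.13 CPM in hy5 (-1.57 ± 0.18, adjusted p 7.5e-06).

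Genes of water channels, microtubules and cellulose synthesis were mostly higher or not called. Of 13 tested plasma membrane aquaporins, the water channels of the cell surface, 9 rose and none fell (median 0.38), and of 7 tested tonoplast aquaporins 4 rose and 1 fell (median 0.70). DELTA-TIP, a channel of the vacuole membrane, stood at 1007, 949 and 1037 CPM in WT and at 1632, 1689 and 1577 CPM in hy5 (0.71 ± 0.06, adjusted p 3.6e-07). TIP4;1 was the tonoplast gene that fell, from 25 to 10.4 CPM. Of 9 tested beta-tubulin genes, whose products form the microtubules, 7 rose and 1 fell (median 0.27). Of 8 tested genes of primary wall cellulose synthesis 5 rose and none fell (median 0.22).

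Wall-loosening families were divided. Of 28 tested xyloglucan endotransglucosylase genes, which cut and rejoin wall polymers, 12 rose and 9 fell, and the root hair members XTH12, XTH13, XTH14 and XTH26 were among those that fell. TCH4, a member induced by touch and by brassinosteroids, stood at 18.6, 14.5 and 23.2 CPM in WT and at 52.6, 48.6 and 50.1 CPM in hy5 (1.43 ± 0.11, adjusted p 1.3e-07). Of 18 tested alpha-expansins, which loosen walls in acid, 5 rose and 6 fell. EXPA2 went from 1.38, 1.83 and 1.3 CPM to 6.54, 6.01 and 8.48 CPM (2.22 ± 0.18, adjusted p 1.8e-07), and the root hair member EXPA18 from 20.8, 21.1 and 18.4 CPM to 4.25, 5.11 and 4.76 CPM (-2.09 ± 0.11, adjusted p 2.1e-09).

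Genes of cell division and the ribosomal protein genes examined were lower by small amounts. Of 14 tested cell cycle genes 11 fell and none rose (median -0.37). CYCD3;1, a cyclin that commits cells to division and that cytokinin is known to induce, stood at 32.2, 33.2 and 31.6 CPM in WT and at 22.1, 22.1 and 24.4 CPM in hy5 (-0.50 ± 0.07, adjusted p 3.6e-05). PCNA1, the sliding clamp of DNA replication, fell from 18.3 to 12.4 CPM. Of 25 tested cytosolic ribosomal proteins, 22 fell and none rose (median -0.32), and their summed level was 5341 to 5839 CPM in WT and 4323 to 4572 CPM in hy5. They were picked by gene name, so that family members under other names are left out, and other genes of protein synthesis were not listed. RPL24A stood at 186, 217 and 190 CPM in WT and at 140, 124 and 132 CPM in hy5 (-0.58 ± 0.07, adjusted p 7.8e-06).

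On the shoot surface, 11 of 14 tested genes of cuticular wax rose and none fell (median 0.48). KCS1, which lengthens fatty acids for wax, stood at 139, 126 and 132 CPM in WT and at 189, 208 and 214 CPM in hy5 (0.62 ± 0.09, adjusted p 4.4e-05). CUT1, another elongase of the pathway, rose from 455 to 660 CPM. WSD1, which makes wax esters, stood at 0.0446, 0.138 and 0.0897 CPM in WT and at 1.48, 1.69 and 2.12 CPM in hy5 (4.21 ± 0.44, adjusted p 2.5e-06), so that it was near the detection limit in WT and above it in each hy5 library. LTPG2, a lipid transfer protein known to act in wax export, went the other way, at 119, 109 and 109 CPM in WT and 31.4, 30.4 and 26.3 CPM in hy5 (-1.94 ± 0.07, adjusted p 3.5e-11). In bbx202122 LTPG2 stood at 112 CPM, and hy5 was lower than bbx202122 by a log2 fold change of -1.93 (adjusted p 3.8e-11).

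Genes of cold and dehydration responses were raised in part, with 6 of 14 tested higher, none lower and 8 not called. The called share, 42.9%, was close to the 39.5% of all tested genes. COR15A and COR15B, neighbouring genes for proteins that protect chloroplast membranes in freezing, rose most. COR15A stood at 1.02, 0.596 and 0.763 CPM in WT and at 16.9, 14.5 and 14.3 CPM in hy5 (4.25 ± 0.28, adjusted p 2.7e-08), and COR15B at 1.07, 0.963 and 0.897 CPM and at 16.0, 14.4 and 14.3 CPM (3.92 ± 0.25, adjusted p 1.7e-08). KIN2 rose from 36.5 to 103 CPM. The CBF factors known to induce these genes in cold were low: CBF2 was not called, at 0.54 and 0.898 CPM (adjusted p 0.15), and CBF1 and CBF3 stood below 0.5 CPM in both genotypes and were not tested. RAB18, RD29B and ERD10, dehydration genes of the same list, were not called either.

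Single genes outside these lists showed some of the firmest decreases. CSLA03, of a family that makes mannan wall polysaccharides, stood at 39.7, 36.2 and 38.2 CPM in WT and at 3.1, 3.8 and 3.06 CPM in hy5 (-3.51 ± 0.09, adjusted p 1.5e-12). It stood at 39.6 CPM in bbx202122, and hy5 was lower than bbx202122 by a log2 fold change of -3.57 (adjusted p 8.7e-13). GRP9, a glycine-rich protein, stood at 20.3, 28.0 and 27.8 CPM in WT and at 2.58, 2.72 and 2.03 CPM in hy5 (-3.37 ± 0.16, adjusted p 8.3e-10); its level in bbx202122 was 5.59 CPM, and hy5 was lower than bbx202122 by a log2 fold change of -1.19 (adjusted p 0.00039). AT5G37690, annotated as an SGNH hydrolase-type esterase, stood at 29.9, 29.9 and 30.5 CPM in WT and at 2.82, 4.22 and 4.05 CPM in hy5 (-3.02 ± 0.11, adjusted p 3.5e-11). The uncharacterised AT5G26270 stood at 40, 43.1 and 42.7 CPM and at 2.77, 2.35 and 3.06 CPM (-3.94 ± 0.13, adjusted p 1.5e-11).

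Among genes of at least 5 CPM in WT, the largest increase belonged to AT5G44440, annotated in the berberine bridge enzyme family, at 40.1, 28.7 and 47.5 CPM in WT and 216, 229 and 195 CPM in hy5 (2.46 ± 0.14, adjusted p 6.1e-09). The peroxidase AT1G49570 stood at 6.99, 8.44 and 6.64 CPM in WT and at 39.2, 39.1 and 35.9 CPM in hy5 (2.37 ± 0.09, adjusted p 8.2e-11). GAT1_2.1, annotated as a glutamine amidotransferase, rose from 15.5 ± 5.9 to 69.7 ± 5.9 CPM, DIN2, a beta-glucosidase known as a dark-induced gene, from 24.1 ± 5.8 to 82.7 ± 10 CPM, and MGL, which breaks down methionine, from 29.1 ± 4.1 to 103 ± 5.6 CPM (SD, n = 3 each). These genes were chosen after their values were seen.

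A further set of genes was read in 1 genotype and hardly at all in the other. In 43 genes the 3 WT libraries together held at most 3 counts while hy5 averaged at least 1 CPM, and in 30 of them WT held 0 counts. AT1G40390 (chromosome 1, 15432576 to 15434674, annotated as DNAse I-like) had 0 counts in every WT library and 138, 116 and 119 CPM in hy5, at least 2648-fold higher when WT is set to 3 counts over the group. AT4G16215, uncharacterised, had 3 counts in WT and 6844 in hy5, where it stood at 112, 107 and 105 CPM. OFP9, annotated as a transcription repressor, lay just outside the count limit, at 0.223, 0.321 and 0.135 CPM in WT and 89.0, 84.0 and 75.5 CPM in hy5. AT2G05915, uncharacterised, had the smallest adjusted p of all increases, 2.3e-15, with 0.223, 0.0917 and 0.135 CPM in WT and 68.7, 64.0 and 65.0 CPM in hy5. Of the 43 genes, 42 averaged under 0.5 CPM in bbx202122, and the exception, AT3G02010, stood at 0.177, 0.36 and 1.83 CPM there.

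The 43 genes were unevenly placed in the genome. Of them 21 were on chromosome 1 and 16 on chromosome 4, with 3 on chromosome 2, 2 on chromosome 5 and 1 on chromosome 3. Within 250 kb on each side they had a median of 78 protein-coding genes, against 137 for all 20622 nuclear genes tested. With fewer than 108 such neighbours, 27 of the 43 (62.8%) lay in gene-poor regions, against 9.8% of all tested genes and 17.3% of the genes at least 2-fold higher in hy5. The 43 genes were chosen for their low WT counts, whereas the genes compared were not chosen by WT level. The part of that choice in the contrast was not tested. AT1G40390 had 6 coding genes around it. Some of their annotations are those of transposons: AT4G04265 (0 counts in WT; 21.1, 19.0 and 19.0 CPM in hy5) is annotated as an En/Spm transposase. Reads cannot be assigned surely where sequence is repeated. In 5 of the 43 genes over 50% of the 50-base words of the gene, introns included, occur elsewhere in the genome, and in 27 under 10% do. AT1G25025 and AT1G25112, with 100% repeated words, had identical values, and OFP9 had 77.3%.

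The reverse, at most 3 counts over the hy5 libraries and at least 1 CPM in WT, was found for 10 genes. They included BCAT4 and CYP79F1 of glucosinolate synthesis and 3 germin-like genes of chromosome 5, AT5G38910, AT5G38930 and AT5G39190, and 9 of the 10 averaged at least 1 CPM in bbx202122. Their median number of coding genes nearby was 132, close to that of all tested genes. Of the 10 genes, 3 have over 50% of their words repeated elsewhere in the genome, AT5G39190 among them with 90.6%, so that its 0 counts in hy5 are uncertain. AT1G25141 had 256 counts in WT and 0 in hy5, at least 84.5-fold lower in hy5, but 100% of its words are repeated. It lies in the same stretch of chromosome 1, between positions 8767562 and 8846726, as AT1G25025 and AT1G25112, where copies of 1 block, among them the LpxC genes, stand side by side and fell or rose from 1 copy to the next: LpxC1 fell from 6.39 to 1.04 CPM and LpxC2 rose from 508 to 743 CPM. The values of such copies are uncertain, since the counting could split reads between them, and sequence differences of the hy5 line cannot be told apart here from its mutation.

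**Figure D5:**
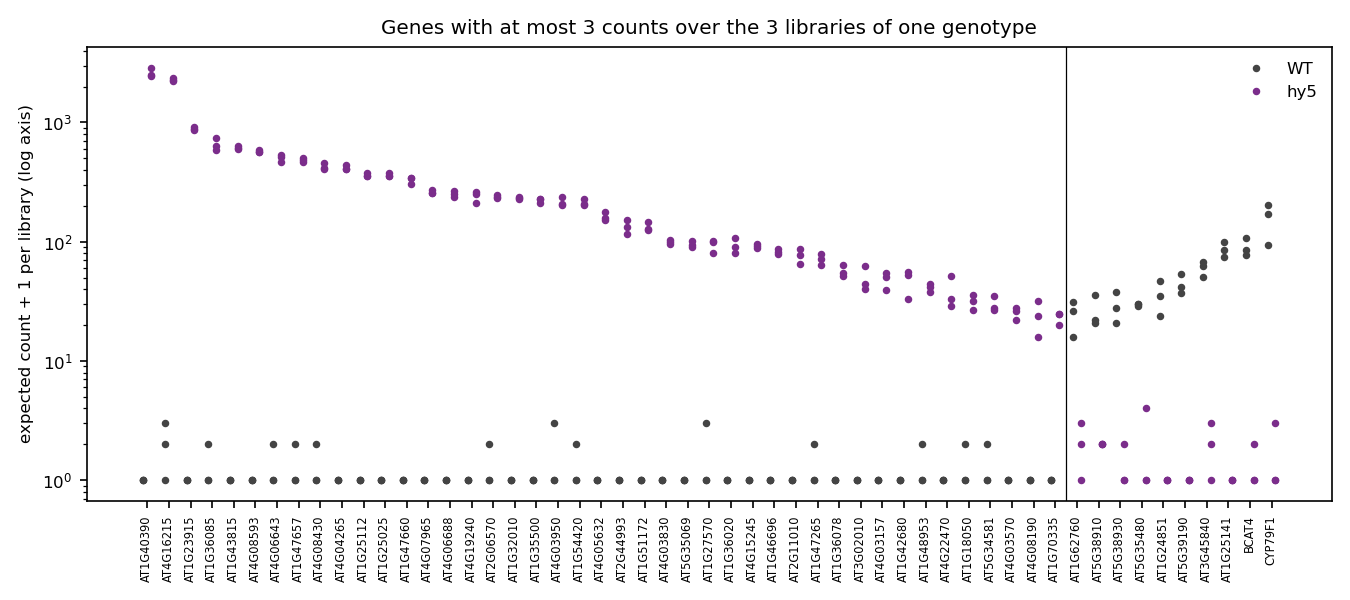
Expected counts plus 1 on a log10 axis for each WT and hy5 library, 1 column of points per gene, for the 43 genes nearly unread in WT (left) and the 10 nearly unread in hy5 (right). In the left group all WT points lie at or close to 1 and all hy5 points well above, and in the right group the order is the reverse.

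Over whole chromosomes the share of called genes was even, from 38.4% on chromosome 3 to 41.0% on chromosome 4. Changes of at least 4-fold were less even: 44 genes were higher on chromosome 1 and 31 on chromosome 4, but 7 on chromosome 3, of 5466, 3162 and 4059 genes tested. These increases include the 43 genes nearly unread in WT, of which 21 lie on chromosome 1, 16 on chromosome 4 and 1 on chromosome 3. The unevenness is therefore in part that of the set already described. Decreases of at least 4-fold numbered 51, 36, 41, 33 and 61 on chromosomes 1, 2, 3, 4 and 5. The genes tested there numbered 5466, 3105, 4059, 3162 and 4830, and the share over all tested genes was 1.07%. HY5 itself lies on chromosome 5, and a link between its position and these numbers was not tested.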

How the data were processed

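Poly(A) RNA of whole seedlings was sequenced on the BGISEQ-500 platform. Per the submitters' processing notes, the authors' tools were RSEM 1.2.12, Bowtie2 2.2.5 and HISAT, whose version is not given, on the build TAIR10. Per the file headers, each deposited file gives a gene's expected count, estimated and not normalised, and its FPKM, scaled by the authors to length and depth. Where a file lacked a gene, its count was taken as 0. Whether counting used strand is not given in the sources used here, so overlapping and antisense genes are uncertain.

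The rounded expected counts of all 9 libraries entered a fit in edgeR 4.0.16 (R 4.3.3), with 1 mean per genotype, TMM scaling and the filterByExpr filter, which kept 20751 of 24640 genes. The contrast hy5 minus WT was put to the quasi-likelihood F test, on 6 residual degrees of freedom. The SE was obtained from the log2 fold change and F. Changes against a group with 0 counts use 3 counts over the group, and intervals are 95% exact binomial, covering counting error only. The test was tried on simulated data first.

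Coordinates, products and the upstream windows come from RefSeq's TAIR10.1, matched by gene identifier for 24436 genes. Of 634 genes in 47 lists, 632 were in the files, and 19 families were formed by name. Members and lists were chosen with earlier results of these data known, so no list is independent evidence. Named genes were HY5, HYH, the 12 largest increases and decreases (mean of at least 5 CPM, no overlap), the 6 smallest adjusted p per direction, genes with at most 3 counts in 1 genotype, and up to 4 called members per list with the smallest adjusted p. Other named genes were chosen after their values were seen. Alternatives were DESeq2 1.42.0, limma 3.58.1 on log2(FPKM + 1), other scalings, no filter, 6 libraries, a replicate block and each replicate left out.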

Additional observations from a re-analysis of the deposited data

How the results depend on the processing

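Against 8187 called genes, the other settings called 7023 (DESeq2) to 8417 (WT and hy5 libraries alone), and 6649 to 7407 when 1 replicate was left out, lowest without hy5 replicate 2. They shared 79.1% to 99.8% of the called genes, none in the opposite direction. With 1 replicate left out, 3289 to 3603 genes were higher and 3360 to 3814 lower, and 1351 to 1468 changed by at least 2-fold, 378 to 448 higher and 971 to 1027 lower. With limma on log2(FPKM + 1), whose pseudocount shrinks low genes, 644 genes reached 2-fold, 213 higher and 431 lower, and 2963 were called higher and 4923 lower. Replicate numbers did not pair the libraries: same-number correlations of the deviations were -0.05, -0.02 and -0.03, and the others ran from -0.02 to 0.05. The fit with the replicate block called 7884 genes. Of 303 named genes, 286 kept their call under every setting and 17 lost it under some, with none reversed. Counts of called list members also moved for karrikin genes (3 of the main 6 with DESeq2, limma or without WT replicate 2), WRKY factors (17 of 26 without hy5 replicate 2), antenna proteins (6 to 7 of 11 in 4 settings) and photorespiration (1 to 4 against 2). At 3 counts per library the detection limit was 0.132 to 0.139 CPM before TMM scaling. Values below it are uncertain, and so is the size of the fold changes that rest on them.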

Other observations

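Gene families outside the pathways above were mixed in direction. Of 88 tested MYB factors 32 fell and 20 rose (median -0.17). MYB59 stood at 48.1, 43.7 and 52.3 CPM in WT and at 96.9, 97.5 and 86.4 CPM in hy5 (0.96 ± 0.07, adjusted p 5.7e-08). Of 58 tested WRKY factors, many of which act in immunity, 17 fell and 9 rose (44.8% called, against 39.5% of all tested genes). WRKY24 fell from 2.82 to 0.615 CPM and WRKY60 rose from 7.41 to 14.9 CPM. Of 64 tested SAUR genes, a family that auxin induces early, 22 rose and 10 fell (median 0.18). Of 172 tested cytochrome P450 genes 45 rose and 51 fell; the median was 0.04, and -0.02 with scaling by library size alone. Outside glucosinolate synthesis, CYP71B11 stood at 25, 26.1 and 22.9 CPM in WT, at 48.7, 51.8 and 47.6 CPM in hy5 (1.0 ± 0.06, adjusted p 2e-08) and at 20.7 CPM in bbx202122. Of 61 tested UDP-glycosyltransferases 19 rose and 13 fell. UGT71D1 stood at 16.5, 16.0 and 16.1 CPM in WT, at 3.15, 4.65 and 4.81 CPM in hy5 (-1.94 ± 0.11, adjusted p 7.8e-09) and at 16.5 CPM in bbx202122. Of 35 tested glutathione transferases 8 rose and 13 fell, with GSTF6 higher (10.2 to 41.3 CPM) and GSTU20, which serves glucosinolate synthesis, lower (67.4 to 21.8 CPM).

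In gibberellin pathways the receptors and DELLA repressors went up by small amounts, with 6 of 9 tested higher and 1 lower. The count of 6 was 4 with scaling by library size alone. Of 13 tested genes of gibberellin synthesis and inactivation 2 rose and 3 fell (38.5% called, against 39.5% of all tested genes). GA3OX1 and GA3OX2, which make active gibberellin, fell from 9.31 to 5.14 CPM and from 1.73 to 0.173 CPM, and GA20OX1, an earlier enzyme of the synthesis, rose from 3.96 to 5.36 CPM. Of 12 tested genes of copper supply and superoxide dismutases 4 rose and 3 fell. Of 12 tested heat shock and folding genes 4 fell and none rose, a called share of 33.3%, below that of all tested genes. BIP2, a chaperone of the endoplasmic reticulum, stood at 285, 297 and 307 CPM in WT and at 205, 213 and 199 CPM in hy5 (-0.52 ± 0.05, adjusted p 2.6e-06). Of 11 tested genes of salicylic acid and immunity 2 rose and 1 fell (27.3% called). The 3 calls were 1 with DESeq2, without WT replicate 3, without hy5 replicate 1 or without hy5 replicate 2. HMG1, the entry enzyme of the sterol pathway, stood at 498, 450 and 480 CPM in WT and at 723, 696 and 704 CPM in hy5 (0.57 ± 0.06, adjusted p 2.2e-06), while FPS1 and FPS2, later in that pathway, fell by 0.14 and 0.21 on the log2 scale. Of 30 B-box factors in the files 27 were tested, with 6 higher and 7 lower (48.1% called). BBX21 rose from 101 to 137 CPM and BZS1 (AT4G39070), another name of BBX20, fell from 4.57 to 2.14 CPM. Both are among the genes mutated in bbx202122, where BBX21 stood at 25.7 CPM and BZS1 at 4.1 CPM. These are levels of mutated genes.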
